A study of Homo sapiens with 6 samples.

Results

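A set of 40 genes that cells switch on for G2 phase and mitosis was examined in THP-1 cells, a human line of monocytic acute myeloid leukaemia, with and without pristimerin. The members were taken by gene symbol from the deposited count table, in which all 40 had a row among 25336 genes, and all 40 passed the filter on low counts that kept 15305 genes. They comprise cyclins and kinases of mitotic entry, the Aurora kinases and their partners, the spindle checkpoint, centromere and kinetochore proteins, the anaphase machinery, mitotic kinesins, proteins of the spindle, midzone and cytokinesis, and the topoisomerase of chromosome structure.

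Poly(A) RNA was sequenced from 3 libraries labelled control and 3 labelled pristimerin, all of THP-1 cells. Pristimerin is a quinone-methide triterpenoid made by plants of the bittersweet family. The labels give neither dose, exposure time nor vehicle, and do not say whether the cells also received erastin, the ferroptosis inducer in the series title. They call the libraries replicate biosamples without stating whether these were separate cultures, so a p-value here speaks only of library-to-library spread, part or all of which may be technical. Higher and lower refer below to pristimerin relative to control.

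Genes of this set are transcribed in a wave that begins in late S phase and peaks as cells enter mitosis. In G1 and in arrested cells the DREAM complex represses them, and in G2 the MuvB core of that complex works with MYBL2 and then FOXM1 to activate them. Their promoters typically carry a cell cycle genes homology region (CHR), which MuvB contacts, and CCAAT boxes, which bind the NF-Y factor. Many of the proteins are destroyed in turn by the anaphase-promoting complex, with CDC20 as the activator before anaphase and FZR1 afterwards.

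Totals ran from 19057219 to 30568593 counts per library, so that 3 counts are worth between 0.0981 and 0.157 CPM (counts scaled to library size). The first principal component of log2 CPM held 56.7% of the variance and separated the groups, while along the second, with 13.1%, both replicate 2 libraries lay away from the other 4. The myeloid markers LYZ (mean 1510 CPM), SPI1 (284), CD33 (77.9) and CSF1R (31.1) were present, whereas CD68 stood at 0.421 CPM. Summed over 10 myeloid markers, the level ranged from 2262.5 to 2395 CPM in control and from 2425 to 2461 CPM in pristimerin libraries. LYZ, which had the highest level of the 10 and weighs most in this sum, was not called (log2 fold change 0.15). The 1 marker called higher was ITGB2 (0.24), and the 3 called lower were FCGR1A (-0.33), CSF3R (-0.42) and CTSS (-0.69). The part of these differences in the results below was not tested. B-cell markers summed to 4.37 to 5.64 CPM, and those of epithelium, fibroblasts and endothelium to at most 0.522 CPM in any library.

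The promoters are shown first because CHR and CCAAT letters are the textbook mark of these genes. RefSeq promoter windows (GRCh38.p14, 250 bases before to 50 after the start) were matched by symbol for 33 of the 40 members, those of FOXM1, AURKA, TPX2, BIRC5, BUB3, TTK and UBE2C being unmatched. The CHR letters searched were TTTGAA and TTTAAA, and the CCAAT letters CCAAT, each as an exact match on either strand. Of the 33 genes, 29 (87.9%) had a CHR match, against 27.9% of all genes with a window, and 26 (78.8%) had a CCAAT match, against 39.7%. Both were found in 22 members (66.7%), against 11.2% of all genes. A match of these letters is a description and not a measured binding site. TTTAAA reads the same on both strands, and matches of CCAAT on opposite strands can overlap.

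Windows of 150 bases, from 130 before the transcription start, are printed 5′ to 3′ on the strand of the gene with CHR and CCAAT letters in capitals, in either orientation. The first are 3 members that were lower with pristimerin under every alternative tried: CDC20 from chr1:43358851-43359000 (plus strand), KIF20A from chr5:138178982-138179131 (plus strand) and PTTG1 from chr5:160421725-160421874 (plus strand).
CDC20: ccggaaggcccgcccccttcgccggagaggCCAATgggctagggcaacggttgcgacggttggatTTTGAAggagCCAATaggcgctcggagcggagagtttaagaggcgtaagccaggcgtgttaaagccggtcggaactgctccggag
KIF20A: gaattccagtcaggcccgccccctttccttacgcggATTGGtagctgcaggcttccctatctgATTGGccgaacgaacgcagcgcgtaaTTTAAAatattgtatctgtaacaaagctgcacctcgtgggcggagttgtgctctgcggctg
PTTG1: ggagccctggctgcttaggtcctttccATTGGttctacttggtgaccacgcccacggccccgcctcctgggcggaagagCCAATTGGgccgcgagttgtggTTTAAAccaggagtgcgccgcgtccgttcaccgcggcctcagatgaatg

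For contrast, 3 members that were higher follow, CCNA2 from chr4:121823864-121824013 (minus strand), BUB1B from chr15:40160939-40161088 (plus strand) and ECT2 from chr3:172750596-172750745 (plus strand).
CCNA2: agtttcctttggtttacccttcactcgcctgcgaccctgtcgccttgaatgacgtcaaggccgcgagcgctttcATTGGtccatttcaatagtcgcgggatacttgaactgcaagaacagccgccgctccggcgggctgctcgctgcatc
BUB1B: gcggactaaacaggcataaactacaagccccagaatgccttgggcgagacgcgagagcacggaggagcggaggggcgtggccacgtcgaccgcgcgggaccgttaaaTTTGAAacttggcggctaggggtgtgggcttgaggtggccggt
ECT2: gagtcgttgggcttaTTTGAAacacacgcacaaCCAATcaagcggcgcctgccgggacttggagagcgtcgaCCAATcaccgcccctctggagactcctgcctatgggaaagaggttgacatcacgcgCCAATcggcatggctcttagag

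The last are CCNB1 from chr5:69167020-69167169 (plus strand) and PLK1 from chr16:23678759-23678908 (plus strand), core mitotic genes for which no change was called.
CCNB1: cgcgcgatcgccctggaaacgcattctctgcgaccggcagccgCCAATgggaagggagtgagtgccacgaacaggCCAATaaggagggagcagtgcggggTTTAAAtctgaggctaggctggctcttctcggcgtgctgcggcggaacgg
PLK1: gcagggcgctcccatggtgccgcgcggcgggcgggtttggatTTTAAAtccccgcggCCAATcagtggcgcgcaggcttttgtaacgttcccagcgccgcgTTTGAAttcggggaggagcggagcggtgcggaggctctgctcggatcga

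The windows shown of CDC20, KIF20A and PTTG1 carried a CHR match and at least 2 CCAAT matches, and so did those of CCNB1 and ECT2. CDC25B, the other lower member, had 1 CCAAT match in each of 2 of its windows and 1 CHR match in another, and no window with both. The windows shown held no exact CHR match for CCNA2 and no CCAAT match for BUB1B, and PLK1 had 2 CHR matches. A missing match says only that these letters are not in this window, and other forms of either element were not searched. The CCNA2 window holds cttgaa, which differs from TTTGAA in its first letter alone. In PTTG1 the capital run before the CHR match holds CCAAT on both strands, overlapping.

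The mitotic transcripts showed small differences in both directions. In edgeR's quasi-likelihood test with adjustment over all 15305 genes and a threshold of 0.05, 4 members rose (CCNA2, ECT2, FOXM1 and BUB1B), 4 fell (KIF20A, PTTG1, CDC20 and CDC25B) and 32 were not called. The called changes ran from 23.8% up for CCNA2 to 23.3% down for KIF20A. Each direction held 10.0% of the members, against 14.5% of all genes tested called higher and 15.1% called lower, or 29.6% called either way. The median log2 fold change of the members was 0.04, and that of all genes tested was -0.01. Of all genes tested 16.5%, and of the 10413 genes averaging 5 CPM or more 7.55%, had a log2 fold change above 0.5 in size. These sets were not matched to the members in level, and the difference was not tested. With TMM none of the 40 log2 fold changes of the members exceeded 0.5 in size. PRC1, a gene of low counts at -0.47, passed that size with upper-quartile scaling (-0.53), with library totals (-0.54), without control replicate 1 (-0.53) and without pristimerin replicate 3 (-0.62). In RNA from a whole culture, fewer cells in mitosis and less of a transcript per cell cannot be told apart.

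The 3 control and 3 pristimerin values did not overlap for 6 members that were higher (21.0% of all genes tested) and 7 that were lower (22.3% of all genes tested), and overlapped for 27. Of the 8 called genes, ECT2 alone overlapped. The split of the calls depended on scaling: with upper-quartile scaling or library totals in place of TMM, 1 member was higher and 7 lower, while among all genes tested increases made up 48.9% of the calls with TMM, 33.3% with upper-quartile scaling and 30.1% with library totals. On log2(FPKM + 1), tested with limma, 0 members were higher and 6 lower, beside 1081 higher and 2419 lower of all 16789 genes tested there. The split of the calls depended on single libraries too, with 10 members higher without control replicate 2, 1 without control replicate 3 and 2 without pristimerin replicate 2. Of all genes tested in these runs, 2357 of 15509, 1742 of 15646 and 1892 of 15637 were higher, in the same order. The 10 were CCNA2, BUB1B and ECT2 with CDK1, BUB3, TTK, NDC80, KIF11, KIF23 and TOP2A.

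**Figure D1:**
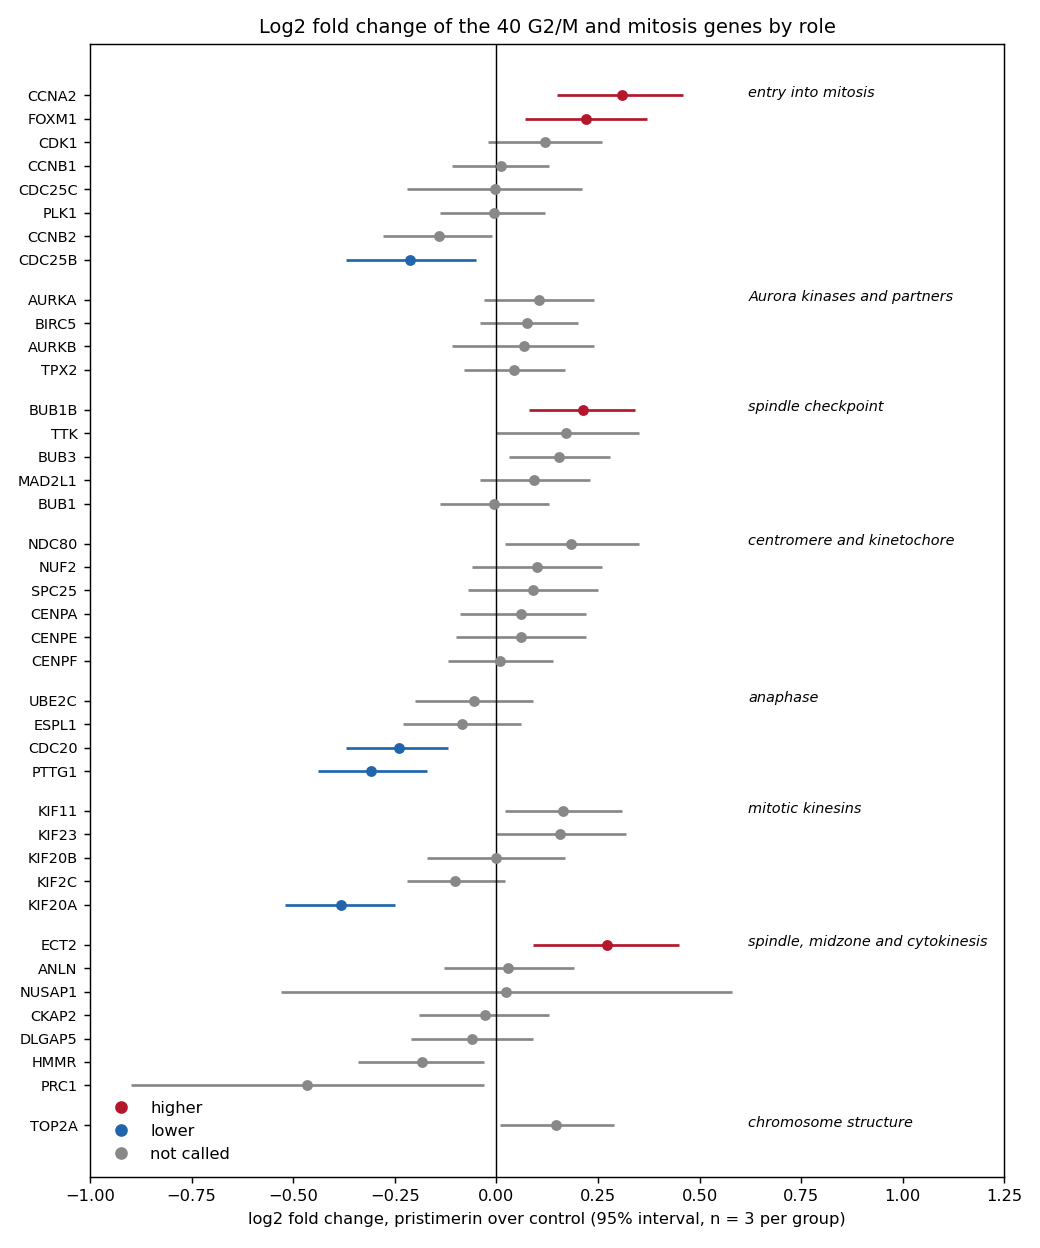
Log2 fold change (x axis, pristimerin over control, TMM scaling, n = 3 per group) of each of the 40 members, grouped by role, with its 95% interval. Values run from -0.47 for PRC1 to 0.31 for CCNA2, and 4 members are marked higher and 4 lower.

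The 8 genes of mitotic entry split, with 2 higher, 1 lower and a median of 0.00. CCNA2, the cyclin that works with CDK2 in S phase and CDK1 in G2 (ENSG00000145386, chromosome 4, 121816444 to 121823883, minus strand), stood at 113, 119 and 99.4 CPM in control replicates 1, 2 and 3 and 129, 147 and 135 CPM in the pristimerin replicates. All 3 pristimerin libraries lay above all 3 control libraries. The means were 110.5 ± 10.2 and 137 ± 9.12 CPM (SD, n = 3), which is 0.31 as a log2 fold change (SE 0.07, 95% interval 0.15 to 0.46, adjusted p = 0.0046 in edgeR's test). Only the 2 FPKM alternatives ended this call, both with a log2 difference of 0.24 and adjusted p of 0.075 and 0.074 in limma. CCNA2 shares 578 bases on the opposite strand with EXOSC9, which stood at 60.9 CPM.

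FOXM1, the forkhead factor that activates G2 and mitotic genes (ENSG00000111206, chromosome 12, 2857680 to 2877174, minus strand), stood at 62.2, 54.9 and 56.8 CPM in control replicates 1, 2 and 3 and 67.9, 70.02 and 64.8 CPM in the pristimerin replicates. Its groups were separate, with replicate 1 of control the closest to the pristimerin values. The means were 58.0 ± 3.77 and 67.6 ± 2.63 CPM (SD, n = 3), which is 0.22 as a log2 fold change (SE 0.07, 95% interval 0.07 to 0.37, adjusted p = 0.024 in edgeR's test). The call was lost with upper-quartile scaling, library totals, both FPKM scales, and without control replicate 2, control replicate 3, pristimerin replicate 1 or pristimerin replicate 2. FOXM1 shares 2112 bases with ITFG2 (12.6 CPM) and 917 bases with RHNO1 (32.1 CPM), both on the opposite strand.

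CDC25B, a phosphatase that helps start CDK1 activation (ENSG00000101224, chromosome 20, 3786772 to 3806121, plus strand), was the lower member of the group, at 47.0, 40.8 and 44.6 CPM in control replicates 1, 2 and 3 and 39.7, 38.0 and 36.6 CPM in the pristimerin replicates. Control replicate 2 and pristimerin replicate 1 nearly met. The means were 44.2 ± 3.14 and 38.1 ± 1.54 CPM (SD, n = 3), which is -0.21 as a log2 fold change (SE 0.08, 95% interval -0.37 to -0.05, adjusted p = 0.046 in edgeR's test). Its adjusted p was the highest of the 8. The call was lost with DESeq2 size factors, without the count filter, in DESeq2 and limma-voom, and on leaving out any library other than control replicate 2.

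CCNB1, CDK1 and PLK1, the core engine of mitotic entry, were not called. CCNB1, the main mitotic cyclin, stood at 187, 195 and 182 CPM in control replicates 1, 2 and 3 and 183, 195 and 191 CPM in the pristimerin replicates, a log2 fold change of 0.01 (95% interval -0.11 to 0.13, adjusted p = 0.92 in edgeR). CDK1, its kinase, stood at 162, 191 and 167 CPM in control replicates 1, 2 and 3 and 182, 197 and 187 CPM in the pristimerin replicates, with a log2 fold change of 0.12 (95% interval -0.02 to 0.26, adjusted p = 0.2 in edgeR). For both genes the groups overlapped. CDK1 was called higher without control replicate 2 (0.20, adjusted p = 0.023 in edgeR) and without both replicate 2 libraries (0.16, adjusted p = 0.02). With the replicate number as a block CDK1 was called higher as well (0.12, adjusted p = 0.03 in edgeR).

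PLK1, the kinase that drives mitotic entry and centrosome maturation, stood at 166, 150.1 and 154 CPM in control replicates 1, 2 and 3 and 160.4, 154 and 153 CPM in the pristimerin replicates, a log2 fold change of -0.01 (95% interval -0.14 to 0.12, adjusted p = 0.95 in edgeR). Its libraries were interleaved. CCNB2, the second B-type cyclin, was at -0.14 with separate groups but an adjusted p of 0.11 in edgeR, and CDC25C, a phosphatase that activates CDK1, was at -0.00 (adjusted p = 0.98). CDC25C shares 6421 bases on the opposite strand with FAM53C, which had the higher level (71.1 against 16.6 CPM), and whether counting used the strand is not given in the sources used here.

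**Figure D2:**
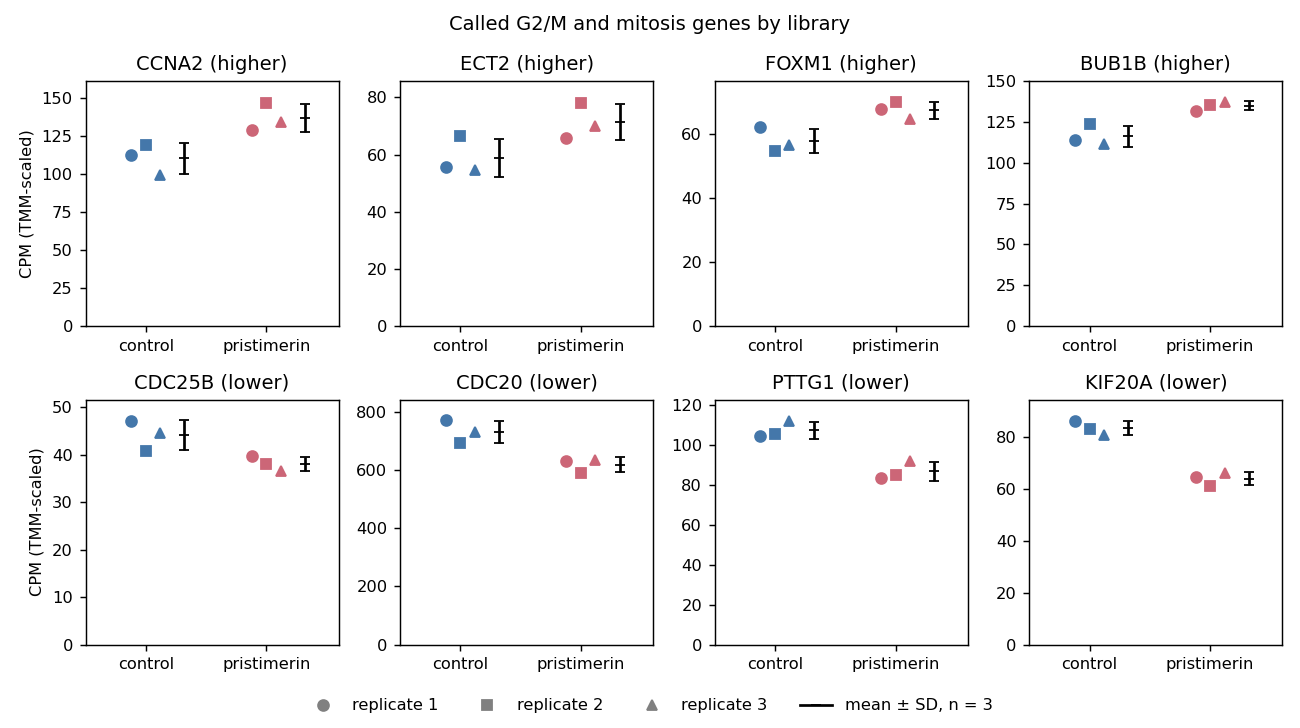
TMM-scaled CPM (y axis, from 0) of the 8 called members in each library, with the marker shape giving the replicate number and black bars the mean ± SD (n = 3). CDC20, PTTG1, KIF20A and CDC25B lie lower in all pristimerin libraries, CCNA2, FOXM1 and BUB1B lie higher in all of them, and the groups of ECT2 overlap.

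None of the 4 Aurora genes was called. AURKA, the kinase of centrosomes and spindle poles, stood at 124, 133 and 125 CPM in control replicates 1, 2 and 3 and 130.3, 145 and 136 CPM in the pristimerin replicates, a log2 fold change of 0.10 (95% interval -0.03 to 0.24, adjusted p = 0.23 in edgeR). AURKB, the kinase of the chromosomal passenger complex, stood at 28.7, 26.6 and 29.2 CPM in control replicates 1, 2 and 3 and 29.2, 28.5 and 30.7 CPM in the pristimerin replicates, a log2 fold change of 0.07 (95% interval -0.11 to 0.24, adjusted p = 0.58 in edgeR). Both sets of values overlapped between the groups. TPX2, which activates AURKA on spindle microtubules, was at 0.04 and BIRC5, the survivin subunit of the passenger complex, at 0.08, with adjusted p of 0.6 and 0.34 in edgeR.

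Of the 5 spindle checkpoint genes, BUB1B rose and 4 were not called, with a median of 0.15. BUB1B, which encodes BUBR1, a subunit of the mitotic checkpoint complex that restrains CDC20 (ENSG00000156970, chromosome 15, 40161023 to 40221123, plus strand), stood at 114, 124 and 111 CPM in control replicates 1, 2 and 3 and 132, 135 and 137 CPM in the pristimerin replicates. The groups were separate, with the pristimerin values the tighter of the pair. The means were 116 ± 6.51 and 135 ± 2.65 CPM (SD, n = 3), which is 0.21 as a log2 fold change (SE 0.06, 95% interval 0.08 to 0.34, adjusted p = 0.016 in edgeR's test). The call was lost with upper-quartile scaling, library totals, both FPKM scales, and without control replicate 3 or pristimerin replicate 3.

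BUB1, the kinase that recruits checkpoint proteins to kinetochores, stood at 220.1, 236 and 201 CPM in control replicates 1, 2 and 3 and 214, 227 and 215 CPM in the pristimerin replicates, a log2 fold change of -0.01 (95% interval -0.14 to 0.13, adjusted p = 0.96 in edgeR). BUB3, the partner of BUB1 and BUBR1, was just short of the threshold at 0.15 (adjusted p = 0.054 in edgeR) with separate groups. TTK, the checkpoint kinase MPS1, was at 0.17 and MAD2L1, which binds CDC20 directly, at 0.09, with adjusted p of 0.13 and 0.3 in edgeR.

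None of the 6 centromere and kinetochore genes was called. Log2 fold changes ran from 0.01 for CENPF, a large kinetochore protein, to 0.18 for NDC80, the microtubule-binding subunit that names its complex (adjusted p = 0.09 in edgeR). All 6 estimates were above 0 with TMM, but those of CENPE and CENPF fell below 0 with upper-quartile scaling, and CENPA also with library totals. NUF2 and SPC25, which sit with NDC80 in the same complex, were at 0.10 and 0.09, and CENPA, the histone H3 variant of centromeres, and CENPE, a kinetochore motor, were each at 0.06. CENPA shares 16943 bases on the same strand with SLC35F6, which stood at 21.4 CPM.

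The 4 anaphase genes were all below 0, with a median of -0.16, and 2 of them fell. CDC20, which activates the anaphase-promoting complex once the checkpoint is satisfied (ENSG00000117399, chromosome 1, 43358981 to 43363203, plus strand), stood at 772, 693 and 730.4 CPM in control replicates 1, 2 and 3 and 633, 591 and 635 CPM in the pristimerin replicates. Every pristimerin library lay below every control library, and replicate 2 was the lowest in both groups. The means were 732 ± 39.5 and 619.7 ± 24.7 CPM (SD, n = 3), which is -0.24 as a log2 fold change (SE 0.06, 95% interval -0.37 to -0.12, adjusted p = 0.0057 in edgeR's test), so that the level fell by 15.3%.

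PTTG1, or securin, which holds separase inactive until anaphase (ENSG00000164611, chromosome 5, 160421855 to 160428739, plus strand), stood at 104, 106 and 112 CPM in control replicates 1, 2 and 3 and 83.1, 85.0 and 91.8 CPM in the pristimerin replicates. The groups were separate by more than the range within either. The means were 107 ± 4.22 and 86.6 ± 4.57 CPM (SD, n = 3), which is -0.31 as a log2 fold change (SE 0.06, 95% interval -0.44 to -0.17, adjusted p = 0.0018 in edgeR's test), so that the level fell by 19.2%. PTTG1 has a near-identical relative, PTTG2, and how shared reads were counted is not given in the sources used here.

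Neither of the other anaphase genes was called: UBE2C, the ubiquitin-conjugating enzyme of the anaphase-promoting complex, was at -0.05 and ESPL1, or separase, at -0.08, with adjusted p of 0.58 and 0.39 in edgeR. All 4 estimates stayed below 0 with each other scaling.

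Of the 5 mitotic kinesins, KIF20A fell and 4 were not called. KIF20A, a motor of the central spindle that is needed for cytokinesis (ENSG00000112984, chromosome 5, 138178719 to 138187723, plus strand), stood at 86.0, 82.8 and 80.7 CPM in control replicates 1, 2 and 3 and 64.5, 61.0 and 66.1 CPM in the pristimerin replicates. The lowest control library exceeded the highest pristimerin library by more than the range within either group. The means were 83.2 ± 2.68 and 63.9 ± 2.60 CPM (SD, n = 3), which is -0.38 as a log2 fold change (SE 0.06, 95% interval -0.52 to -0.25, adjusted p = 0.00032 in edgeR's test), so that the level fell by 23.3%. It shares 74 bases with CDC23 and 235 bases with BRD8, both on the opposite strand.

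None of the other kinesins passed the test. KIF11, the motor that separates spindle poles, was at 0.16 with separate groups and an adjusted p of 0.077 in edgeR, and KIF23, a motor of the midzone, was at 0.16 (adjusted p = 0.14). KIF2C, which removes tubulin from microtubule ends at centromeres, was at -0.10 with separate groups and an adjusted p of 0.19, while KIF20B, a relative of KIF20A, was at -0.00. Neither KIF2C nor CCNB2 was called, although both were called lower with upper-quartile scaling, library totals and both FPKM scales. CCNB2 was also called lower with a filter at a mean of 5 CPM (-0.18, adjusted p = 0.046 in edgeR) and with the replicate block (-0.14, adjusted p = 0.029).

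Of the 7 genes of the spindle, midzone and cytokinesis, ECT2 rose and 6 were not called, with a median of -0.03. ECT2, the exchange factor that activates RhoA at the cleavage furrow (ENSG00000114346, chromosome 3, 172750682 to 172821474, plus strand), stood at 55.7, 66.5 and 54.5 CPM in control replicates 1, 2 and 3 and 65.7, 78.1 and 70.01 CPM in the pristimerin replicates. Replicate 2 was the highest in both groups, and its control value exceeded the lowest pristimerin value. The means were 58.9 ± 6.60 and 71.3 ± 6.31 CPM (SD, n = 3), which is 0.27 as a log2 fold change (SE 0.08, 95% interval 0.09 to 0.45, adjusted p = 0.023 in edgeR's test). The call was lost with upper-quartile scaling, library totals, both FPKM scales, and without control replicate 1, control replicate 3 or pristimerin replicate 2.

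HMMR, a spindle protein that also binds hyaluronan, was at -0.18 (adjusted p = 0.074 in edgeR). It was called lower with upper-quartile scaling (-0.24, adjusted p = 0.018 in edgeR) and library totals (-0.25, adjusted p = 0.017). The same held with a filter at a mean of 5 CPM (-0.22, adjusted p = 0.038) and the replicate block (-0.18, adjusted p = 0.0028). HMMR was also called lower without pristimerin replicate 2 (-0.26, adjusted p = 0.012) and without both replicate 2 libraries. DLGAP5, which stabilises spindle fibres near kinetochores, CKAP2, a microtubule-associated protein, and ANLN, the scaffold of the contractile ring, lay between -0.06 and 0.03. PRC1, which bundles midzone microtubules, and NUSAP1, a spindle microtubule protein, had means of only 1.94 and 1.54 CPM over the 6 libraries. PRC1 was at -0.47 (SE 0.21, 95% interval -0.90 to -0.03, adjusted p = 0.099 in edgeR), the estimate farthest from 0 in the set and the least precise but for NUSAP1 (0.02, SE 0.26). PRC1 (chromosome 15, 90966040 to 90995629) shares 29440 bases, almost its whole span, on the same strand with ENSG00000284946, a protein-coding entry at 16.1 CPM. NUSAP1 shares 1599 bases on the same strand with OIP5-AS1 at 371 CPM. On the opposite strand PRC1 shares 22286 bases with PRC1-AS1 (1.93 CPM), and NUSAP1 shares 11798 bases with OIP5 (0.580 CPM). How reads in these shared stretches were assigned is not given in the sources used here.

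TOP2A, the topoisomerase that untangles and compacts mitotic chromosomes, stood at 571, 632 and 569 CPM in control replicates 1, 2 and 3 and 617, 717 and 628 CPM in the pristimerin replicates. The groups overlapped because control replicate 2 exceeded pristimerin replicates 1 and 3. The log2 fold change was 0.15 (SE 0.07, 95% interval 0.01 to 0.29, adjusted p = 0.11 in edgeR). TOP2A was called higher without control replicate 2 (0.20, adjusted p = 0.034 in edgeR) and without the count filter (0.16, adjusted p = 0.045). With the replicate number as a block it was called higher as well (0.15, adjusted p = 0.0068 in edgeR).

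In all, 5 members had an adjusted p between 0.05 and 0.10 in edgeR and lay just outside the threshold, namely BUB3, HMMR, KIF11, NDC80 and PRC1. CDC25B at 0.046 and FOXM1 at 0.024 lay closest inside it. CDC20, PTTG1 and KIF20A were called lower under each of 16 alternatives and with both replicate 2 libraries left out, with log2 fold changes of -0.31 to -0.20, -0.38 to -0.26 and -0.45 to -0.35.

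Libraries of the same group also differed in these genes. Replicate 2 was the highest library in both groups for 23 members (57.5%), against 22.8% of all genes tested and 15 of 50 DNA replication and G1/S genes (30.0%). It was the lowest in both for 3 members, CDC20, ESPL1 and AURKB (7.5%, against 20.1% of all genes tested). The median deviation of the members from their group mean was 0.062 in replicate 2 of control and 0.061 in replicate 2 of pristimerin on the log2 scale, and between -0.057 and -0.024 in the other 4 libraries, while that of all genes tested stayed between -0.004 and 0.005. Summed over the members, TMM-scaled CPM was 5504, 5728 and 5385 in control and 5437, 5845 and 5533 in pristimerin replicates 1, 2 and 3. These sums overlap between the groups.

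With both replicate 2 libraries left out, an alternative chosen after seeing the data, 8 members were higher and 5 lower with 2 libraries a group. The higher ones were CCNA2, BUB1B, ECT2, BUB3, CDK1, KIF11, NDC80 and TTK, and the lower ones CDC20, CDC25B, HMMR, KIF20A and PTTG1. Of all 15326 genes tested in that setting, 2468 were higher and 2231 lower. FOXM1 was then at 0.16 with an adjusted p of 0.063 in edgeR.

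**Figure D3:**
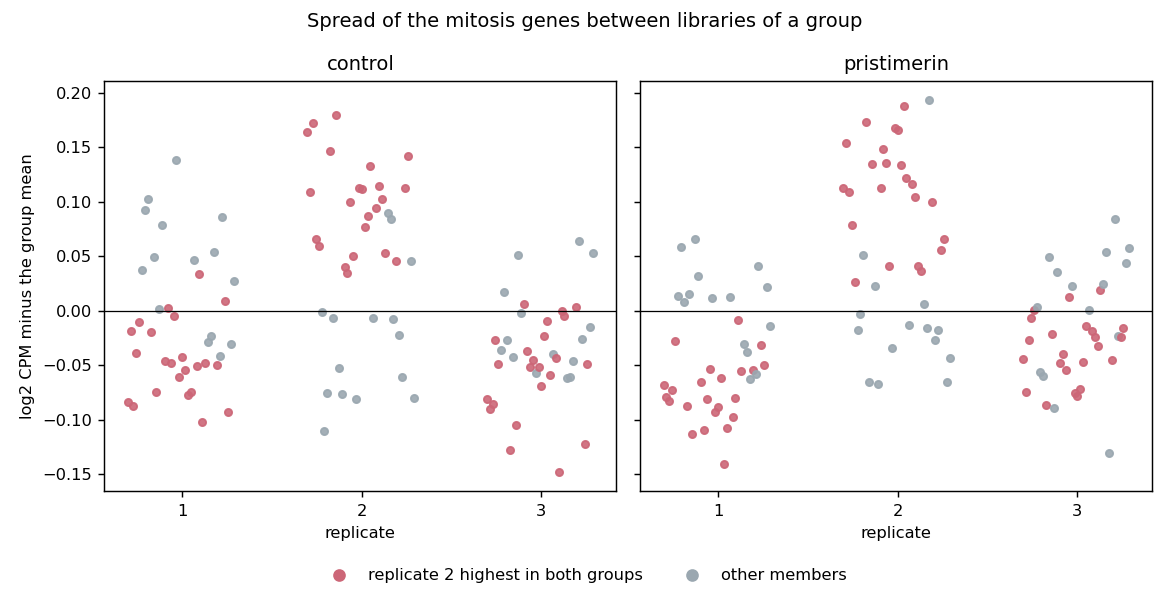
Deviation of log2 CPM from the group mean (y axis) in each replicate (x axis) of control and pristimerin, 1 point per member, with PRC1 and NUSAP1 left out for their low counts. Red points are the 23 members for which replicate 2 was the highest in both groups, and by that choice they lie above 0 in replicate 2 of both panels.

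Levels between genes were compared per transcript length, as the deposited FPKM (fragment counts scaled to gene length and library size). CDC20 had the highest level of the set, at 373 ± 19.6 FPKM in control and 300 ± 12.4 in pristimerin (SD, n = 3), and TOP2A followed at 94.9 ± 6.31 and 100.01 ± 8.22. CCNB1 was the third at 79.2 ± 3.18 and 76.0 ± 2.18. These 3 did not overlap their neighbours in control, nor did TPX2 (64.5 ± 2.90) overlap KIF2C (57.3 ± 1.99), while KIF2C overlapped PTTG1. Over the whole order, 27 of 39 neighbouring pairs overlapped in control and 12 did not.

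The median member level was 25.3 FPKM in control and 26.2 in pristimerin. PTTG1 moved from rank 6 (55.6 ± 1.84 FPKM) to rank 10 (42.8 ± 2.02), and KIF20A from rank 25 (22.1 ± 0.808) to rank 30 (16.2 ± 0.654). CCNA2 moved the other way, from rank 11 (41.2 ± 4.07) to rank 6 (48.6 ± 3.10). In control, ranks 7 to 11 each overlapped the next, and the difference of CCNA2 was not called on the FPKM scale, so this move crosses ranks that were not separate. Within the checkpoint, the order in control was BUB1 (35.6 FPKM), BUB3 (31.1), BUB1B (26.7), TTK (21.2) and MAD2L1 (20.1), with the libraries overlapping for BUB1 and BUB3 and for TTK and MAD2L1. Within the NDC80 complex it was SPC25 (23.3 FPKM), NDC80 (22.5) and NUF2 (17.8), the libraries of SPC25 and NDC80 overlapping. CENPE (7.73) and CDC25C (5.11) were low, and NUSAP1 (0.436) and PRC1 (0.417 FPKM in control) lay far beneath them. Reads in the bases that NUSAP1 and PRC1 share with other genes may be missing from their counts, so both low levels are uncertain. On the same strand this covers almost the whole span of PRC1 (29440 bases) but only 1599 bases of NUSAP1.

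**Figure D4:**
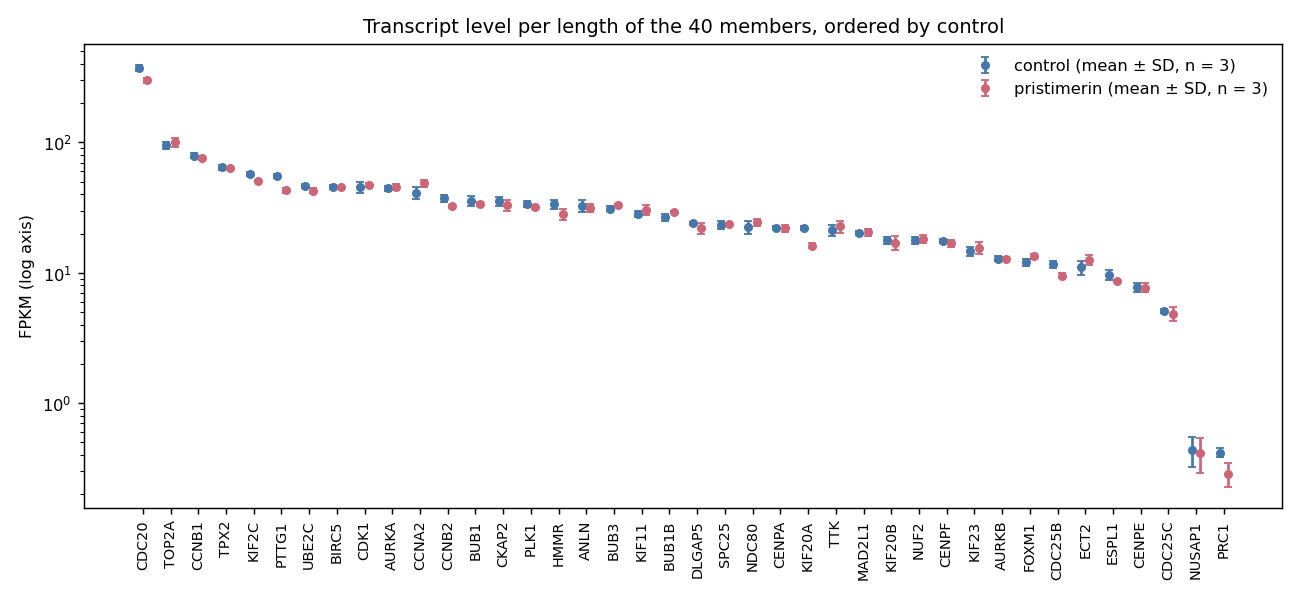
FPKM (y axis, log scale) of the 40 members in control and pristimerin, as mean ± SD (n = 3), ordered by the control level. CDC20 leads at 373 FPKM in control, and NUSAP1 and PRC1 end the order at 0.436 and 0.417. Both share bases on the same strand with another gene, and how reads there were assigned is not given in the sources used here.

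Genes of the steps before mitosis and further mitotic genes were counted beside the 14.5% of all genes tested that were called higher. Of 50 DNA replication and G1/S genes 35 rose (70.0%) and 0 fell, with a median log2 fold change of 0.26, and the count of higher genes ran from 23 to 38 over the alternatives. CCNE2, an E-type cyclin of the G1/S transition, went from 31.4 ± 0.944 to 49.6 ± 4.30 CPM, log2 fold change 0.66, SE 0.08, adjusted p = 1.1e-05 in edgeR (means ± SD, n = 3, here and below). CCNE1, the other E-type cyclin, went from 32.6 ± 1.75 to 46.1 ± 2.49 CPM, log2 fold change 0.50, SE 0.08, adjusted p = 0.00013 in edgeR. RFC3, a subunit of the clamp loader, went from 72.1 ± 6.50 to 102 ± 3.64 CPM, log2 fold change 0.50, SE 0.07, adjusted p = 6.2e-05 in edgeR. The difference between this or the following lists and the members was not tested.

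Among 11 further regulators of mitotic entry, 5 rose and 0 fell, with a median of 0.16 and 3 to 5 higher over the alternatives. MASTL, the Greatwall kinase, went from 47.5 ± 2.27 to 68.8 ± 6.28 CPM, log2 fold change 0.53, SE 0.08, adjusted p = 6.6e-05 in edgeR. ARPP19, the substrate through which Greatwall restrains the phosphatase PP2A-B55, went from 155 ± 12.4 to 228 ± 19.4 CPM, log2 fold change 0.55, SE 0.07, adjusted p = 2.7e-05 in edgeR. CDC25A, a phosphatase that activates CDK2 and CDK1, went from 55.1 ± 3.41 to 77.1 ± 2.18 CPM, log2 fold change 0.48, SE 0.07, adjusted p = 5.4e-05 in edgeR. ENSA, the other Greatwall substrate, rose as well (0.22, adjusted p = 0.0073 in edgeR) and was picked out after its value was seen. WEE1 and PKMYT1, the kinases that hold CDK1 inactive, were not called (0.01 and 0.06), and were likewise picked out after their values were seen.

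Of 17 genes of the anaphase-promoting complex and its regulators, 3 rose and 1 fell, with a median of 0.14 and 1 to 7 higher over the alternatives. FBXO5, the inhibitor EMI1, went from 85.3 ± 5.89 to 117 ± 9.76 CPM, log2 fold change 0.45, SE 0.07, adjusted p = 0.0002 in edgeR. FZR1, the activator CDH1 that takes over from CDC20 after anaphase, went from 71.1 ± 7.24 to 58.5 ± 4.16 CPM, log2 fold change -0.28, SE 0.08, adjusted p = 0.015 in edgeR, a call lost without control replicate 1, control replicate 3 or pristimerin replicate 3. CDC27, a core subunit, was at 0.26, and lost its call with library totals, both FPKM scales, and without control replicate 3 or pristimerin replicate 2.

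In chromosome structure, 10 of 20 condensin and cohesin genes rose and 0 fell, with a median of 0.17 and 3 to 14 higher over the alternatives. SMC3, a cohesin subunit, went from 185 ± 10.4 to 239.7 ± 18.8 CPM, log2 fold change 0.37, SE 0.07, adjusted p = 0.00057 in edgeR. ESCO2, the acetyltransferase that locks cohesin in S phase, was at 0.37 and NCAPH, a condensin subunit, at 0.33, with adjusted p of 0.003 and 0.0006 in edgeR. The call of ESCO2 was lost on both FPKM scales.

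Of 37 other centromere and kinetochore genes 8 rose and 2 fell, with a median of 0.09 and 2 to 17 higher over the alternatives. CENPH, of the constitutive centromere network, went from 44.6 ± 3.44 to 64.2 ± 4.58 CPM, log2 fold change 0.52, SE 0.08, adjusted p = 8.3e-05 in edgeR. CENPI, of the same network, was at 0.47 and SKA2, of the SKA complex at the outer kinetochore, at 0.39, with adjusted p of 0.00081 and 0.0022 in edgeR, and the call of SKA2 was lost on both FPKM scales.

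Of 23 centrosome and spindle assembly genes 8 rose and 1 fell, with a median of 0.08 and 3 to 11 higher over the alternatives. CEP55, the abscission protein, went from 57.5 ± 3.77 to 81.1 ± 4.73 CPM, log2 fold change 0.50, SE 0.07, adjusted p = 6.8e-05 in edgeR. HAUS1, of the augmin complex, was at 0.34, and PLK4, the kinase of centriole duplication, at 0.31, with adjusted p of 0.0012 and 0.0065 in edgeR, the call of PLK4 being lost on both FPKM scales. Of 8 other mitotic kinesins KIF2A, a relative of KIF2C, rose (0.40, adjusted p = 0.00044 in edgeR) and 7 were not called. Pooled, these 6 lists held 116 genes, of which 35 rose and 4 fell with a median of 0.14, and over the alternatives 13 to 56 were higher and 0 to 9 lower.

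The regulators of the promoters shown above were examined as 12 genes of the DREAM and MuvB complexes, of which 3 rose and 1 fell, with a median of 0.12. MYBL2, which activates the same promoters ahead of FOXM1, held 312, 262 and 278 CPM in control and 396, 383 and 385 CPM in pristimerin replicates 1, 2 and 3. The groups were separate, and the log2 fold change was 0.45 (SE 0.07, adjusted p = 7.1e-05 in edgeR). TFDP1, the partner of E2F factors, went from 215 ± 4.68 to 292 ± 7.55 CPM, log2 fold change 0.44, SE 0.06, adjusted p = 1.9e-05 in edgeR. Its relative TFDP2 fell (-0.31, adjusted p = 0.0097 in edgeR), a call lost without pristimerin replicate 1 or 3.

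**Figure D5:**
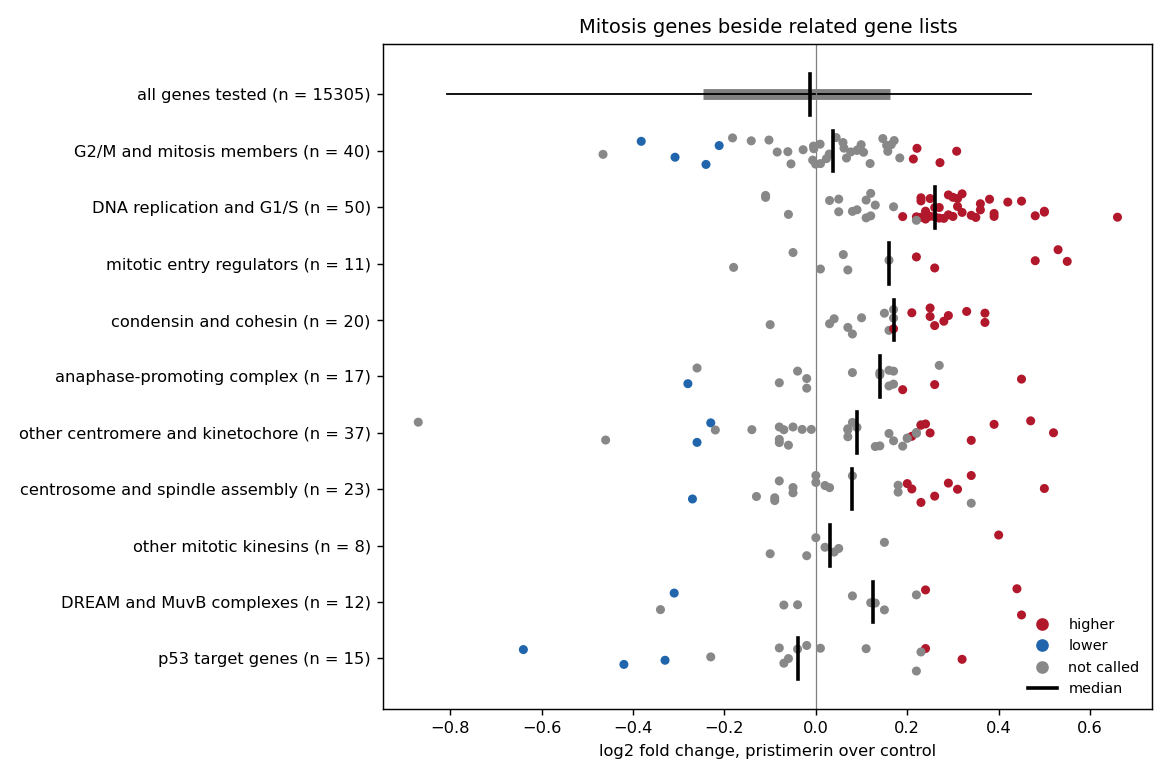
Log2 fold change (x axis, pristimerin over control) of each gene tested in the members and in 9 related lists, with the median as a black bar, and for all 15305 genes tested the middle 50% of genes as a thick bar and the middle 90% as a thin line. The member median is 0.04, and that of the DNA replication and G1/S genes is 0.26.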

How the data were processed

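The treatment label put 3 libraries in the control and 3 in the pristimerin group. RNA was, per the labels' protocols, poly(A)-selected and made into strand-specific dUTP libraries. The submitters' processing notes name the build hg38; the aligner, the counter and its strand setting were not given in the sources used here. The deposited tables hold unnormalised whole-number counts and FPKM values for 25336 genes, both made by the authors, and the combined table repeated the same values.

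After filterByExpr, set to a minimum count of 10 and a minimum total of 15, and scaling by TMM, counts were tested in edgeR 4.0.16 (R 4.3.3). The model held the group alone, and the quasi-likelihood F test was used with Benjamini-Hochberg adjustment over 15305 genes with a threshold of 0.05; 10031 genes were left out. CPM values are TMM-scaled, and log2 fold changes are pristimerin minus control. Standard errors come from the F statistic. FPKM served only for levels between genes and for 2 alternatives. Chi-square values between replicates of a group were 2.75 to 11.6 per degree of freedom, and no library was counted as a copy. The labels give no batch. The script was tested on simulated data.

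Results were recomputed under 16 alternatives: scaling by library totals, by upper quartiles or by DESeq2 size factors, a filter at a mean of 5 CPM or none, other tools (limma-voom in limma 3.58.1, DESeq2 1.42.0), limma on FPKM with a pseudocount of 1 or 0.1 where the mean FPKM reached 0.1, a replicate block, and each library left out. Another was added after seeing the data. The members and lists were chosen with earlier results of these data known. All 40 members are named; values in every library are given for called members and 10 anchors (CCNB1, CDK1, CCNA2, PLK1, AURKA, AURKB, TOP2A, CDC20, BUB1 and FOXM1). From other lists, at most 3 called genes are named by rule, those that changed most among genes averaging 5 CPM or more; others are said to be picked after their values were seen. Promoters are RefSeq windows on GRCh38.p14. Of 7 members that share bases with a gene of at least 20% of their own CPM, 3 share them on the same strand and 6 on the opposite strand. T-cell and erythroid markers are not reported here. Python 3.11.15 with pandas 2.3.3 and matplotlib 3.10.9 made the summaries and figures.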

Additional observations from a re-analysis of the deposited data

How the results depend on the processing

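CDC20, PTTG1 and KIF20A kept their calls under every alternative run; the other 5 called members lost theirs under the alternatives named beside them, without a change of sign. The count of members called higher (4 with TMM) was 1 with upper-quartile scaling, 1 with library totals, 9 without the count filter, 0 on log2(FPKM + 1), 0 on log2(FPKM + 0.1), 8 without both replicate 2 libraries, and 1 to 10 on leaving out 1 library. The count called lower (4) was 7 with upper-quartile scaling and 7 with library totals, and 3 to 4 on leaving out 1 library. The members' median (0.037) was -0.023 with upper-quartile scaling, -0.035 with library totals, -0.023 on log2(FPKM + 1) and -0.032 on log2(FPKM + 0.1), where the median of all genes tested (-0.013 with TMM) was -0.073, -0.084, -0.049 and -0.082, so that the members' median lay above it in each. All 40 members were tested in these settings, but the number of all genes tested differed. Of 15305 genes tested, 1523 were higher with upper-quartile scaling and 1389 with library totals. Without the count filter 2565 of 25336 were higher. On log2(FPKM + 1) 1081 of 16789 were higher, on log2(FPKM + 0.1) 1084 of 16789, and without both replicate 2 libraries 2468 of 15326. With upper-quartile scaling 3052 of 15305 were lower, and with library totals 3221 of 15305. On leaving out 1 library 1742 to 2357 were higher and 1534 to 2329 lower, of 15509 to 15761 genes tested. The cause of these shifts was not tested. Over all genes tested, same-numbered libraries deviated together only weakly (correlations of 0.037 to 0.137), although every library correlated best with its own number. The members shared more than this in replicate 2, which was the highest in both groups for 57.5% of them, against 22.8% of all genes tested. The replicate numbers were not taken as pairs, so whatever same-numbered libraries share stayed in the spread of the main test. With the replicate number as a block, 11 members were higher and 6 lower. Among all 15305 genes tested, 3150 were then higher and 2948 lower. The 11 members were BUB1B, BUB3, CCNA2, CDK1, ECT2, FOXM1, KIF11, KIF23, NDC80, TOP2A and TTK. The 6 were CCNB2, CDC20, CDC25B, HMMR, KIF20A and PTTG1.

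The sign of these uncalled members changed. With DESeq2 size factors, CDC25C was at 0.01, PLK1 at 0.003, BUB1 at 0.01 and KIF20B at 0.01; without the count filter 0.01, 0.01, 0.01 and 0.02; in DESeq2 0.02, 0.01, 0.02 and 0.02. With upper-quartile scaling, CCNB1 was at -0.05, TPX2 at -0.02, CENPE at -0.001, CENPF at -0.05, NUSAP1 at -0.04 and ANLN at -0.03. With library totals, CCNB1 was at -0.06, TPX2 at -0.03, AURKB at -0.004, CENPA at -0.01, CENPE at -0.01, CENPF at -0.06, NUSAP1 at -0.05 and ANLN at -0.04. On log2(FPKM + 1) these 8 were at -0.06, -0.02, -0.004, -0.01, -0.01, -0.06, -0.02 and -0.04, and on log2(FPKM + 0.1) at -0.06, -0.03, -0.004, -0.01, -0.01, -0.06, -0.06 and -0.04. With a mean of at least 5 CPM, CCNB1 was at -0.02, CENPF at -0.03 and ANLN at -0.01, and PRC1 and NUSAP1 were not tested. Without both replicate 2 libraries, BUB1 was at 0.03, CENPF at -0.03, UBE2C at 0.01 and NUSAP1 at -0.20. On leaving out 1 library, the ranges were -0.11 to 0.08 for CDC25C, -0.04 to 0.04 for PLK1, -0.05 to 0.05 for CENPF, -0.25 to 0.20 for NUSAP1, -0.03 to 0.12 for ANLN, -0.05 to 0.05 for BUB1, -0.10 to 0.07 for KIF20B, -0.11 to 0.03 for CKAP2, -0.01 to 0.04 for CCNB1 and -0.001 to 0.13 for CENPE. For named genes of other lists, 396 of 425 values kept direction and call, 29 lost the call and 0 changed sign.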

Other observations

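Of 16 p53 target genes 15 were tested, and 2 rose and 3 fell, which is 13.3% and 20.0% of them, beside 14.5% and 15.1% of all genes tested. The median log2 fold change was -0.04, and 0 to 3 were called in each direction over the alternatives. GADD45A, which can hold CDK1 in check after DNA damage, went from 14.4 ± 1.26 to 11.5 ± 0.563 CPM, log2 fold change -0.33, SE 0.10, adjusted p = 0.019 in edgeR, a call lost in DESeq2 and without control replicate 3, pristimerin replicate 2 or pristimerin replicate 3. FDXR, a mitochondrial reductase, was at -0.42 and PLK2, a stress-responsive polo-like kinase, at 0.32 (adjusted p = 0.011 and 0.03 in edgeR). The call of FDXR was lost without control replicate 3 or pristimerin replicate 3, and that of PLK2 under 7 alternatives. CDKN1A, the CDK inhibitor p21 and the best known target of p53, was weakly expressed at 5.01 ± 0.586 CPM in control and 4.73 ± 0.836 CPM in pristimerin (SD, n = 3), and was not called (-0.07, adjusted p = 0.77 in edgeR). It was picked out after its value was seen.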
